A study of Mus musculus with 6 samples.

Results

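The homeobox genes Otx1, Otx2, Six3, Six6, Emx2, Lhx2, Lhx5, Hesx1, Rax and Dmbx1 pattern the anterior end of the embryo, above all the forebrain, the eye field and the midbrain. These 10 genes were chosen by name, and each had a single entry among the 22969 gene names of the RNA-seq table. The RNA came from E14Tg2a, a line of mouse embryonic stem cells (ESCs) used at passages 37 to 40. In 3 samples the cells were pluripotent ESCs grown with LIF, a cytokine that holds them undifferentiated. In the other 3 LIF had been withdrawn and the cells had spent 2 days (48 h) in 1 μM retinoic acid (RA), and these are called neuronal cells (NCs). LIF was removed and RA was added in the same samples, so the contributions of these changes cannot be told apart, and all samples came from 1 cell line. For each gene the table holds 1 value per condition in FPKM (a fragment count scaled to transcript length and to sequencing depth), pooled over the 3 samples. No value of a single sample was used here, so the values carry no replicate error and no difference was tested.

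Homeobox genes encode transcription factors that bind DNA through a homeodomain, and their regional expression divides the early neural tube along its axis. Otx2 is needed for the forebrain and midbrain, and its boundary with Gbx2, a gene of the anterior hindbrain, places the midbrain-hindbrain organizer. Otx2 is also active earlier, when pluripotent cells leave the naive state for that of the epiblast. RA is a posteriorizing signal in the embryo, where it turns on Hox genes of the hindbrain, while the forebrain is protected from it.

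Of the 10 genes, Otx2 and Hesx1 were lower in NCs than in ESCs and Emx2 and Lhx2 were higher, each by more than 2-fold. These were the 4 that reached 1 FPKM in either condition, and the other 6 stayed under 1 FPKM in both. Of the 13290 genes of the table with at least 1 FPKM in either condition, 10.6% were at least 2-fold lower in NCs. Another 12.5% were at least 2-fold higher. Each of the 4 genes reached 1 FPKM in only 1 condition, the one where it was higher. Of the 13290 genes, 11715 reached it in both, so these shares are not a like-for-like background for the 4. The log2 ratios of NC to ESC of the 4 genes were -7.83, -1.72, 3.71 and 5.47, so their median of 1.00 describes none of them. The median was -0.03 over the 13216 genes with at least 1 FPKM in either condition and a value above 0 in both. The middle part of these, from the 25th to the 75th percentile, ran from -0.45 to 0.44. Genes that were higher made up 54.0% of all those past 2-fold. That share was 70.6% once the FPKM were rescaled to the same sum in both conditions, which shifts every log2 ratio by 0.29. The 4 genes kept their direction and stayed past 2-fold under this scaling.

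**Figure D1:**
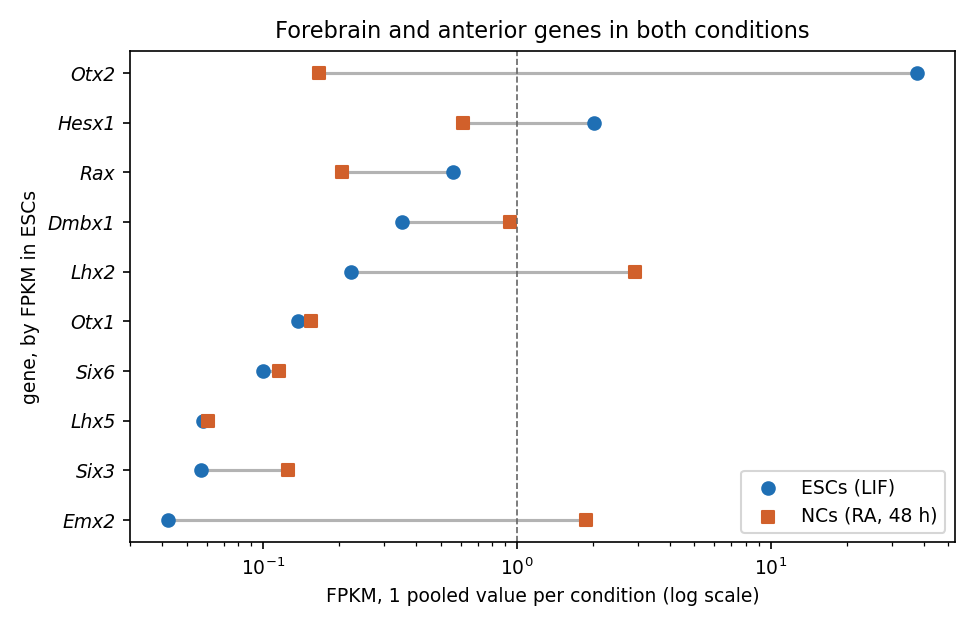
Expression level of each of the 10 genes in FPKM, on a log axis, in ESCs and in NCs, with 1 pooled value per condition and no error bars because no replicate values were used. Otx2 is at 37.8 in ESCs but 0.166 FPKM in NCs, whereas Lhx2 and Emx2 end at 2.91 and 1.87 FPKM in NCs.

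Otx2 lies on chromosome 14 at 48657677 to 48673819 on the minus strand (GRCm38, GENCODE M21), with 11 annotated transcripts, and was the most abundant of the 10 genes in ESCs. Its level was 37.8 FPKM in ESCs against 0.166 in NCs, a log2 ratio of -7.83 or a 228-fold lower level. Only 4 of the 13216 genes, which all had a value above 0 in both conditions, had a lower log2 ratio. Genes at 0 in NCs, such as Mir1945 at 40.8 FPKM in ESCs, have no ratio and were not ranked. Among all gene names Otx2 went from the 88.5th percentile of expression in ESCs to the 32.9th in NCs. Its close relative Otx1, a gene of cortex and sense organ development, was at 0.138 FPKM in ESCs against 0.155 in NCs. Otx2 was therefore 274 times as abundant as Otx1 in ESCs on the FPKM scale and 1.07 times as abundant in NCs. Crx, the third gene of this family and a photoreceptor regulator, was at 0.186 and 0.227 FPKM.

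Dmbx1, a paired-type gene of the midbrain and diencephalon at chromosome 4, 115915119 to 115939926 on the minus strand, was at 0.354 FPKM in ESCs against 0.937 in NCs. This 2.65-fold higher level in NCs did not reach 1 FPKM. Hesx1, a repressor needed for the anterior forebrain and the pituitary, lies on the plus strand of chromosome 14 at 26994416 to 27002329. It was at 2.02 FPKM in ESCs against 0.614 in NCs, 3.28-fold lower, and was the second most abundant of the 10 genes in ESCs. With 1 FPKM added to both values, its log2 ratio of -1.72 became -0.90, which is short of 2-fold.

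Lhx2 and Emx2 were the most abundant of the 10 genes in NCs, at levels near the median of 1.89 FPKM over all gene names in that condition. Lhx2, a LIM homeobox gene required for eye and cortex formation, lies on chromosome 2 at 38339281 to 38369733 on the plus strand. Its level was 0.222 FPKM in ESCs against 2.91 in NCs, 13.1-fold higher. Emx2, which patterns the cortex and the urogenital system, lies on chromosome 19 at 59458372 to 59465357 on the plus strand. It was at 0.0421 FPKM in ESCs, the lowest value of the 10 genes in that condition, against 1.87 in NCs, a 44.4-fold higher level. In NCs Lhx2 stood at the 53.9th percentile of all gene names and Emx2 at the 49.9th. Their log2 ratios of 3.71 and 5.47 fell to 1.68 and 1.46 with 1 FPKM added to both conditions. The other LIM homeobox gene, Lhx5, expressed in the diencephalon, was at 0.0580 and 0.0605 FPKM, so that Lhx2 was 3.84 times Lhx5 in ESCs and 48.1 times in NCs.

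The remaining genes are known for the eye field, the patch of anterior neural plate from which both retinas form. Six3, on chromosome 17 at 85613608 to 85629302, was at 0.0570 FPKM in ESCs against 0.125 in NCs. Six6, on chromosome 12 at 72939892 to 72944899, was at 0.0999 and 0.116 FPKM. Six3, Six6, Otx1 and Lhx5 thus all lay between 0.0570 and 0.155 FPKM in both conditions. Rax, the retina and anterior neural fold homeobox gene, was higher than these in ESCs. It was at 0.562 FPKM in ESCs against 0.204 in NCs, 2.75-fold lower, and lies at 65928277 to 65939787 on the minus strand of chromosome 18.

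**Figure D2:**
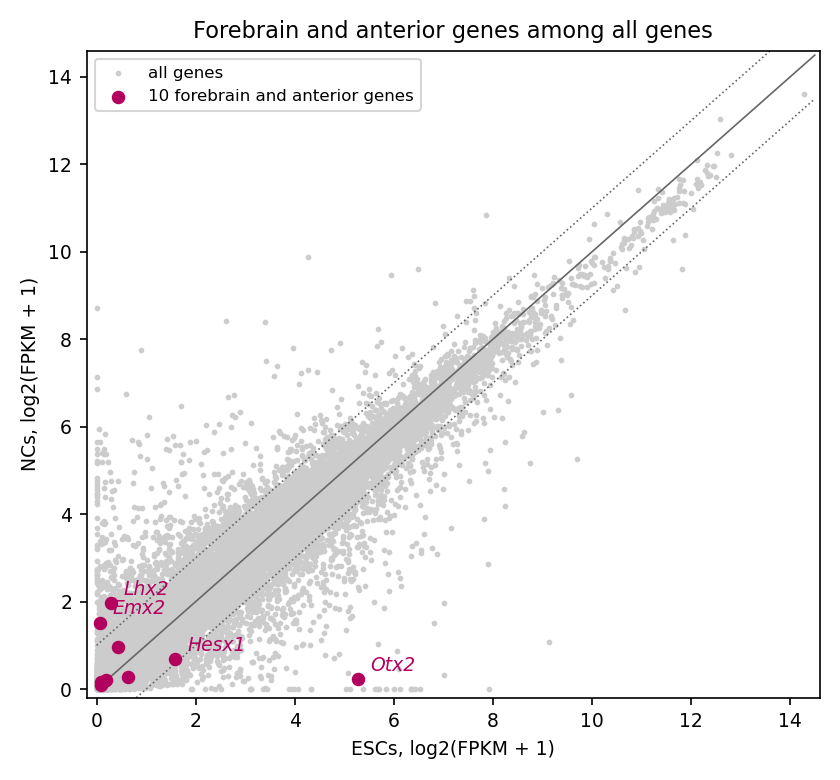
Each gene of the table by its level in ESCs and in NCs, both as log2(FPKM + 1), with the 10 genes marked and the dotted lines at a 2-fold difference on that scale. Otx2 lies far below most genes of its ESC level, Lhx2 and Emx2 lie above the upper line, and the others sit between the lines close to the origin.

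The order of the 10 genes changed between the conditions. In ESCs it ran from Otx2 through Hesx1, Rax, Dmbx1, Lhx2, Otx1, Six6, Lhx5 and Six3 to Emx2. In NCs it ran from Lhx2 through Emx2, Dmbx1, Hesx1, Rax, Otx2, Otx1, Six3 and Six6 to Lhx5. Without replicate values, whether neighbours in these orders differ could not be tested. The FPKM of the 10 genes summed to 41.3 in ESCs, of which Otx2 made up 91.4%, and to 7.15 in NCs, of which it made up 2.32%. Lhx2 and Emx2 together held 0.640% of the sum in ESCs and 66.8% in NCs. Without Otx2 the sum was 3.55 FPKM in ESCs against 6.99 in NCs, 1.97-fold higher. These are values of whole cultures, in which fewer cells expressing a gene and less RNA per cell cannot be told apart.

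How many sequenced fragments stood behind such low values was read from the lowest values of the table. In genes with a single annotated transcript, these values fell on steps of 0.0120 or 0.0138 FPKM per fragment and kb of alignable length for ESCs, and of 0.00715 or 0.0135 for NCs. Of 183 such values for ESCs 72.7% lay within 3% of a step, and of 271 for NCs 66.1% did. The steps were the densest points of these same values, which were cut at a fixed upper limit. These shares are therefore not a test of the steps, and a step above the limit could not have been found. The fragment numbers and intervals below rest on the larger step. By the larger step, the Otx2 values corresponded to about 6548 fragments in ESCs and 29 in NCs, and those of Emx2 to about 8 and 375. The 95% interval of the ratio, which covers counting error only, was 158 to 340 for the lower level of Otx2 and 22.3 to 104 for the higher level of Emx2. It was 9.55 to 18.3 for Lhx2 and 2.31 to 4.76 for the lower level of Hesx1.

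For the scarcer genes the intervals were wide. Six3 rested on about 14 fragments in ESCs and 32 in NCs, and its 2.19-fold higher level had an interval of 1.14 to 4.45. The ratio of Six6 was 1.16 with an interval of 0.673 to 2.01, that of Otx1 was 1.12 with 0.636 to 2.00, and that of Lhx5 was 1.04 with 0.402 to 2.74, so a difference was not detectable at this depth for these 3 genes. Rax, with 1.82 to 4.27 for its lower level in NCs, and Dmbx1, with 2.18 to 3.23 for its higher level, had intervals that excluded an equal level. The spread between cultures is not part of any of these intervals.

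**Figure D3:**
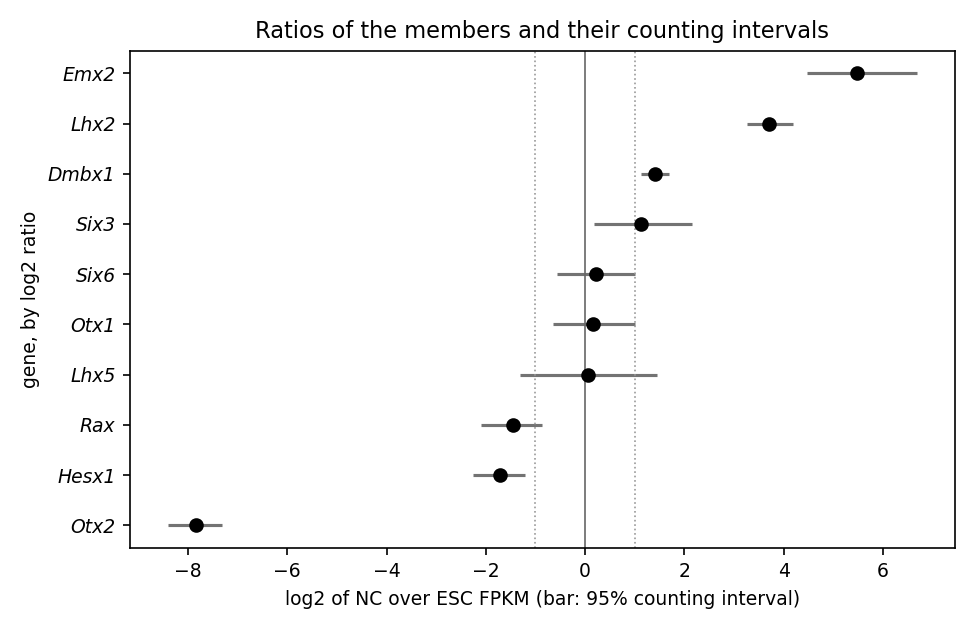
Log2 ratio of NC to ESC FPKM for the 10 genes, with bars for the 95% interval from counting error only and dotted lines at 2-fold. Otx2 lies at -7.83 and Emx2 at 5.47, while the bars of Six6, Otx1 and Lhx5 include 0.

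The region before an annotated transcription start is shown so that the base composition of these genes can be seen beside their levels. RefSeq promoter windows (GRCm38.p6) were found for 7 of the 10 genes, in 11 windows, and Otx1, Lhx5 and Rax were not matched. The 250 bases before the start are printed for the 4 genes with a window that overlaps no annotated exon, which was the only ground for printing them, 5′ to 3′ on the strand of the gene, with the CG dinucleotides in capitals. They lie at chr14:48667645-48667894 on the minus strand for Otx2, at chr14:27000112-27000361 on the plus strand for Hesx1, at chr2:38339031-38339280 on the plus strand for Lhx2 and at chr4:115939927-115940176 on the minus strand for Dmbx1.
Otx2: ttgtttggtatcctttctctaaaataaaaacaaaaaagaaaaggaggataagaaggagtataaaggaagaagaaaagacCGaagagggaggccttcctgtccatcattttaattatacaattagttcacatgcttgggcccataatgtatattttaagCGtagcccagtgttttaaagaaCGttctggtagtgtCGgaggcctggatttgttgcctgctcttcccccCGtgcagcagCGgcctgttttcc
Hesx1: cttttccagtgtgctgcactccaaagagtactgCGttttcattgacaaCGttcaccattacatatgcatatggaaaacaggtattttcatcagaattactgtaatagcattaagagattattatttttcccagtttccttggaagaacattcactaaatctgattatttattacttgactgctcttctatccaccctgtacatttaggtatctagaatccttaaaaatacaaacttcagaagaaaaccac
Lhx2: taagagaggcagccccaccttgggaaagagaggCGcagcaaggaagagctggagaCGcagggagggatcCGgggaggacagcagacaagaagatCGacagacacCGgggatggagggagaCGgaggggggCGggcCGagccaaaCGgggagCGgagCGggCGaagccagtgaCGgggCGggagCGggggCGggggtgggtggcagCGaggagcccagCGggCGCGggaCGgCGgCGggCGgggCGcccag
Dmbx1: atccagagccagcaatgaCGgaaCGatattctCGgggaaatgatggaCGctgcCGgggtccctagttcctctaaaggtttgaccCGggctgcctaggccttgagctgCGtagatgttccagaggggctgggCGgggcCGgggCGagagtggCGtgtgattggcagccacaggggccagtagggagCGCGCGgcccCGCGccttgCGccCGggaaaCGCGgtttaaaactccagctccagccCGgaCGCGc

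The printed windows of Otx2 and Hesx1 lie inside the annotated genes, before an internal start. Those of Lhx2 and Dmbx1 lie before the 5′ end of the gene, so the compositions below are not of like starts. The printed window of Otx2 holds 6 CG dinucleotides at a GC content of 42.0%, and that of Hesx1 holds 2 at 34%. The other Otx2 windows, which overlap exons, hold 8 to 14. The windows of Lhx2 and Dmbx1 hold 25 and 23, at 72.8% and 65.2% GC. Over all 32851 RefSeq windows the median was 6 CG dinucleotides and 52.4% GC. Among the windows that overlap an exon and are not printed, that of Emx2 holds 24 CG dinucleotides at 67.2% GC, the second of Lhx2 holds 24 at 68.4%, that of Six6 holds 17 at 62.8% and that of Six3 holds 10 at 48.8%. Six3, whose level was 2.19-fold higher in NCs, thus held fewer than the richest Otx2 window. Short motifs were searched on both strands of the windows. AGGTCA, the core recognized by nuclear receptors such as those for RA, was in 0 of the 11 windows and in 14.0% of all windows, and the octamer ATGCAAAT of POU factors was in 0 of the 11 and in 1.60% of all. TAATTA, a core bound by many homeodomains, was in 2 of the 11 and 4.84% of all, both of Otx2, and it lies in the printed Otx2 window at positions -141 to -136 from the start. TAATCC, the core bound by OTX proteins, was in 1 window, again of Otx2, and in 6.25% of all. That window, which is also the other one with TAATTA, is not printed, and all of its 250 bases lie in annotated exons. The homeodomain and OTX motifs begin with the same letters. TATAAA was in 1 of the 11 and in 12.4% of all, and lies in the printed Otx2 window at positions -192 to -187. A match of letters is not a bound site.

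The surroundings of the genes in the genome were compared by position. Only protein-coding genes whose GENCODE name was also in the RNA-seq table were considered, so a nearer gene under another name could be missed. The nearest such neighbour of Otx2 on one side was Exoc5, 330 kb away with 8.06 and 8.23 FPKM in ESCs and NCs. On the other side it was Peli2, 376 kb away with 1.60 and 4.2 FPKM. Neither shared the lower level of Otx2. Il17rd, 36.6 kb from Hesx1, was lower in NCs as Hesx1 was, with 12.6 and 4.28 FPKM, and Appl1, 23.2 kb away, was at 17.9 and 13.9 FPKM. The neighbours of Lhx2, Dennd1a and Nek6, were at 4.75 and 10.7 FPKM in ESCs and at 6.40 and 14.0 FPKM in NCs. Those of Emx2, Pdzd8 and Rab11fip2, were at 8.28 and 1.93 FPKM in ESCs and at 10.3 and 3.33 FPKM in NCs. Six2, 55.0 kb from Six3, was at 0.388 and 1.03 FPKM.

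Several of the genes overlap a transcript of the opposite strand, and the sources used here do not say that the libraries kept strand, so reads of the pairs cannot be told apart with certainty. The antisense transcript Otx2os1 was at 0.341 FPKM in ESCs against 0.0250 in NCs, Six3os1 was at 0.0188 and 0.150 FPKM, and Emx2os was at 0.0538 and 0.0982 FPKM. 4930447C04Rik, opposite Six6, was at 8.14 and 5.87 FPKM. Antisense genes are annotated over Lhx2, Lhx5 and Rax as well, without values here. Of the 50-base words of the transcripts, 2.75% of those of Otx2 are shared with another annotated gene, a same-strand transcript over Otx2. For the other 9 genes the share was at most 0.652%. Words were compared in the direction of transcription only, so overlap with a transcript of the opposite strand does not enter these shares.

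The genes whose pair of levels was most like that of each of the 4 genes were found by the distance on the log2(FPKM + 1) scale over the 2 conditions. Ly6g6e, with 32.7 FPKM in ESCs against 0.290 in NCs, was among the 3 nearest to Otx2, at a distance of 0.25. The other two were the microRNA genes Mir1945 at 0.247 and Mir3074-1 at 0.268, both listed at 0 in NCs. Emx2 had 2610100L16Rik, A430089I19Rik and Pax3 nearest, within 0.0497, and Pax3 was at 0.0717 and 1.81 FPKM. Lhx2 had Gm1995, Lmx1a and Tmem178 nearest, within 0.0559. Hesx1 had Tmem45a, Eln and Gng8 nearest, within 0.0229. With 2 conditions, such likeness describes a pair of levels only.

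Other genes of the same regions were counted on lists of known regional genes. Of 16 other forebrain and eye field genes, 4 had at least 1 FPKM in either condition, of which 3 were at least 2-fold higher in NCs and 0 lower, with a median log2 ratio of 3.22. Pax6, a regulator of eye and neural progenitors that is also expressed in the hindbrain and spinal cord, was at 3.64 FPKM in ESCs against 65.2 in NCs, 17.9-fold higher. Sp8 was at 0.0444 and 6.06 FPKM, and Vax2, a gene of the ventral retina, at 0.628 and 3.07 FPKM. Emx1, the relative of Emx2 in the cortex, was at 0.248 and 0.189 FPKM. Nkx2-1 was at 0.0498 and 0.118 FPKM, and Fezf1 and Fezf2 were at no more than 0.0262 FPKM in either condition. The summed FPKM of this list was 6.95 in ESCs and 76.5 in NCs, of which Pax6 alone accounted for 65.2 in NCs.

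Among 16 relatives from the same homeobox families (sine oculis, LIM, EMX and OTX), 7 had at least 1 FPKM, of which 5 were at least 2-fold higher in NCs and 0 lower, with a median log2 ratio of 1.40. Lhx1, a LIM gene of the head organizer, was at 0.108 and 3.39 FPKM, 31.4-fold higher. Lmx1a, a LIM gene of the roof plate and midbrain floor, was at 0.218 and 3.06 FPKM. Six5 was at 2.11 and 7.65 FPKM, and Six4, at 7.56 and 5.46 FPKM, lay within 2-fold. Lhx9 was at 0.277 and 0.0199 FPKM, below 1 FPKM in both.

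Of 14 genes of the head organizer and of antagonists that protect the anterior end from WNT, BMP and Nodal signals, 11 had at least 1 FPKM, of which 6 were at least 2-fold higher and 2 at least 2-fold lower in NCs, with a median log2 ratio of 1.41. Sfrp5, a secreted WNT antagonist, was at 1.03 and 37.5 FPKM, 36.3-fold higher. The Nodal antagonists Lefty2, at 23.4 and 0.726 FPKM, and Lefty1, at 47.5 and 3.0 FPKM, were 32.3-fold and 15.8-fold lower. Cer1, an antagonist made by the anterior visceral endoderm, stayed under 1 FPKM.

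Of 19 midbrain-hindbrain boundary and hindbrain genes, 15 had at least 1 FPKM, of which 13 were at least 2-fold higher in NCs and 0 lower, with a median log2 ratio of 6.45. Of these 13 genes, 7 were Hox genes. Hoxb1, a gene of rhombomere 4, was at 0.126 and 56.1 FPKM. Wnt1, a signal of the midbrain-hindbrain boundary, was at 0.00633 and 1.77 FPKM, the first of which corresponds to about 1 fragment, so no ratio is given. Gbx2 was at 8.90 and 31.2 FPKM. The level of Otx2 was 4.24 times that of Gbx2 in ESCs, and in NCs the level of Gbx2 was 188 times that of Otx2, both on the FPKM scale. The boundary genes En1, at 0.230 and 0.228 FPKM, En2, at 1.31 and 1.22 FPKM, and Fgf8, at 1.51 and 0.934 FPKM, lay within 2-fold. Pax2, another boundary gene, did not, at 0.0587 FPKM in ESCs and 1.27 in NCs, 21.7-fold higher.

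**Figure D4:**
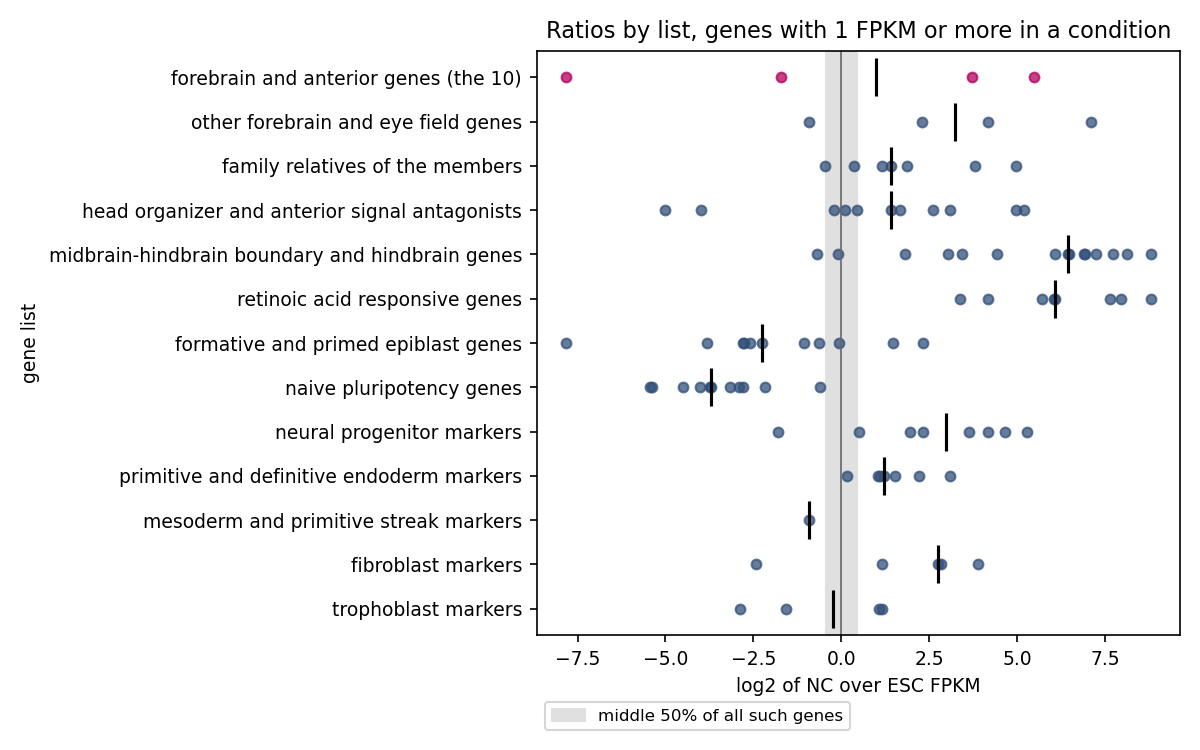
Log2 ratio of NC to ESC FPKM for the genes of each list with at least 1 FPKM in either condition, with 1 point per gene, black bars at the list medians and grey for the 25th to 75th percentile of all such genes. The 4 forebrain and anterior genes lie on both sides of 0, and the hindbrain list has its median at 6.45.

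Since Otx2 is also a gene of the early epiblast, it was set beside 10 other genes of formative and primed pluripotency, which together with Otx2 make a list of 11. All 11 had at least 1 FPKM, of which 7 were at least 2-fold lower in NCs and 2 higher, with a median log2 ratio of -2.25. Foxd3 was at 4.70 and 0.334 FPKM, 14.1-fold lower, and Fgf5 was at 3.89 and 0.561 FPKM, 6.93-fold lower. Pou3f1 was 6.0-fold lower, and Sox3 and Sall2 were the higher ones, at 21.9 and 21.1 FPKM in NCs. Otx2 had the lowest ratio of the list. Of 11 naive pluripotency genes, 10 were at least 2-fold lower, with a median log2 ratio of -3.71, led by Esrrb at 128 and 2.94 FPKM and Nr0b1 at 26.9 and 0.646 FPKM.

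The labels of the samples were checked by marker lists. All 8 RA responsive genes were at least 2-fold higher in NCs, with a summed FPKM of 31.6 in ESCs and 1744 in NCs. Of 11 neural progenitor markers, 8 had at least 1 FPKM, of which 6 were higher and 1 lower. Sox1 was at 1.77 and 21.8 FPKM and Sox2, which pluripotent cells share, at 258 and 74.1 FPKM. Markers of other cell types also differed between the pooled values. Of 8 endoderm markers 6 were at least 2-fold higher, with a summed FPKM of 17.9 in ESCs and 42.2 in NCs, with Foxa2 at 0.617 and 5.24 FPKM, Sox17 at 0.861 and 4.0 FPKM, Gata6 at 2.37 and 5.48 FPKM and Dab2 at 9.0 and 19.3 FPKM. Afp was the 1 endoderm marker under 1 FPKM in both, at 0.0161 and 0.0871 FPKM. Of 6 fibroblast markers 4 were higher and 1 lower, with sums of 19.8 and 44.1 FPKM. Of 6 trophoblast markers 2 were higher and 2 lower, with sums of 113 and 173 FPKM. Krt8 was at 30.5 and 64.2 FPKM and Krt18 at 45.7 and 103 FPKM, Tfap2c was at 34.0 and 4.59 FPKM and Ascl2 at 2.65 and 0.899 FPKM, with Cdx2 at 0.274 and 0.353 FPKM and Elf5 at 0.0297 and 0.0830 FPKM. Of 8 mesoderm markers, only Eomes reached 1 FPKM, in ESCs, and it lay within 2-fold, with sums of 4.22 and 3.05 FPKM and T at 0.628 and 0.299 FPKM. The part of these cell types in the levels of the forebrain and anterior genes was not tested.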

How the data were processed

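RNA was measured in 3 ESC and 3 NC samples as deposited. According to the methods and processing notes, the authors aligned TruSeq reads to mm10 with TopHat2 (2.0.8), which ran Bowtie2 at version 2.1.0, assembled transcripts with Cufflinks 2.0.2 and Cuffmerge, and compared conditions with Cuffdiff, whose version is not given in the sources used here. The authors deposited FPKM, 1 per gene and condition, pooled over replicates. The NC heading reads FPK and was taken as FPKM. Columns of their own comparison (log2 fold change, test statistic, p-value, q-value, significance) were not used. Depth per sample is unknown.

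Of rows sharing a name, the highest was used (23235 rows, 22969 names). Ratios had no pseudocount. Genes needed 1 FPKM in either condition and 2-fold to be counted. All 10 members were named, with the 3 nearest genes of those at 1 FPKM or more, and from each list up to 2 genes with the largest difference each way, relatives of the members, and at most 4 further examples. A few genes that this rule names were left out of the text, and Pax2 was named in addition. The members and lists were chosen with earlier results of these data known. Fragment numbers used a fragment length of 200 bases and the longest coding transcript of GENCODE M21. The ratios and 2-fold counts were run on simulated data with planted changes past the limit. That checked their arithmetic only, not the fragment numbers or intervals. Python 3.11.15, numpy 2.4.6, pandas 2.3.3, scipy 1.17.1 and matplotlib 3.10.9 were used. Alternatives were pseudocounts, filters, scalings and fold limits.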

Additional observations from a re-analysis of the deposited data

How the results depend on the processing

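No paired analysis was possible because the table holds 1 pooled value per condition, and for the same reason no replicate could be left out and no spread between cultures enters any value. The count of genes at least 2-fold lower in NCs (2, Otx2 and Hesx1) became 1 (Otx2) with a pseudocount of 1 FPKM or a fold limit of 4, and 3 (with Rax) with no filter or a filter of 0.3 FPKM. The count of those at least 2-fold higher (2, Emx2 and Lhx2) became 4 (with Six3 and Dmbx1) with no filter beyond a value above 0 in both conditions and 3 (with Dmbx1) with the filter of 0.3 FPKM. Of 50 log2 ratios of the 10 genes under alternatives, 10 moved by more than 1.5-fold, all with a pseudocount, and 0 reversed. A pseudocount cannot change the sign of a ratio, so its part in the lack of reversals was fixed in advance. The other alternatives could not move a ratio by 1.5-fold. Rescaling shifts every log2 ratio by 0.29, centring takes off a median of -0.048, and summing rows of one name changed none of the 10. Otx2 ranged from -7.83 to -5.06, Emx2 from 1.46 to 5.77 and Lhx2 from 1.68 to 4.0. Over all genes, 1412 lower and 1657 higher became 980 and 2349 with FPKM rescaled to one sum, 974 and 1073 with a pseudocount of 1, 2401 and 2944 with no filter, 2572 and 2740 at a fold limit of 1.5, and 488 and 678 at 4.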
